A study of Canis lupus familiaris with 32 samples.

Results

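Within the short survivors of a study of canine osteosarcoma (OS), 8 tumors of subgroup B were set against 8 tumors of subgroup A, so that 16 of the 32 tumors of the series entered the comparison. Subgroup B holds the tumors numbered 3, 4, 5, 7, 8, 10, 11 and 12, and subgroup A those numbered 1, 2, 6, 9, 13, 14, 15 and 16. The subgroups were chosen by the study from these same arrays, through a hierarchical clustering on the genes that had separated short survivors (SS) from long survivors (LS). Which dogs fell in each was worked out from the study's survival curves and the dogs' times, so survival was not compared here. Tumors 6 and 8 came from dogs with the same survival time, so the times alone do not place this pair. Every difference between B and A is therefore given as a description of how the tumors divide and is no test, and the limma calls below serve to order the probes.

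Each tumor was a primary OS taken from its own pet dog at surgery, before any therapy, and was hybridized on 1 two-color cDNA array against a pool of RNA from all 32 tumors. The dogs of subgroup B and of subgroup A died early (SS), and those of the 16 LS tumors, shown here only as a level, lived longer. Dogs of subgroup B had a mean age of 6.64 ± 2.61 years and came from 5 breeds, against 8.15 ± 2.01 years and 7 breeds in subgroup A (SD, n = 8 each). All values are log2 ratios of tumor over pool, so that 0 is the level of the pool, and the base of the logarithm was taken as 2 because the sources used here do not name it.

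Tumor RNA carried Cy5 on 5 arrays of subgroup B, on 3 of subgroup A and on 8 of LS, and Cy3 on the others, and this orientation shifted many probes. It was therefore a covariate in every fit, and values are also given within each orientation. "Dye-adjusted" values have the fitted dye effect of the probe removed. Median ratios of the 16 SS arrays lay between -0.03 and 0.01, and the strength of the dye effect on each array, scaled to its mean on LS arrays, lay between 0.35 and 0.71 with Cy5 and between -0.86 and -0.15 with Cy3. Tumor 13 of subgroup A stood apart at -0.15, beside -0.86 to -0.67 in the other SS tumors in Cy3. Without tumor 13, 52 probes were called higher in B, of which 45 were among the 51 described below, and 0 in place of 2 lower. The samples are pieces of whole tumor, in which fewer cells of a type and less RNA per cell cannot be told apart.

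OS is a malignant bone tumor whose cells lay down osteoid, the unmineralized bone matrix. Several genes of this comparison act in the nucleus. Splicing of messenger RNA is carried out by the spliceosome, helped by serine- and arginine-rich (SR) proteins that gather in nuclear speckles, and the kinases that phosphorylate them. Corepressors such as NCOR1 recruit histone deacetylases to nuclear receptors, of which the glucocorticoid receptor is one, and remodeling complexes move nucleosomes along DNA.

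The probes that passed the fit were almost all higher in subgroup B. Of 22176 probes, 51 were called higher in B (0.23%) and 2 lower (0.00902%) at an adjusted p under 0.10 in limma's fit of the 16 SS arrays. Since the subgroups came from these arrays, nothing is read from these shares or from their direction. The genes used for the clustering had all been chosen as higher in short survivors. The 51 differences, B minus A, ranged over 0.47 to 4.08 with a median of 0.93, and 21 of them were above 1. Over all probes the median difference was -0.02 and 45.3% of the differences were positive. The 51 probes comprised 35 with a gene symbol, from 30 genes, and 16 without a symbol, which are unnamed here. The 2 lower probes had no symbol, with differences of -0.88 (SE 0.18) and -0.35 (SE 0.07). At an unadjusted p under 0.05, 1002 probes were higher and 718 lower.

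Ranking probes by a fit does not show whether the tumors of the subgroups overlap, so the ranges were compared directly. After adjustment for dye, all 8 tumors of B lay above all 8 of A at 56 probes (0.253%) and below them at 10 (0.0451%). Taken within the Cy5 arrays and again within the Cy3 arrays, which needs no dye adjustment, the subgroups did not overlap in the same direction in both orientations at 77 probes for B above A (0.347%) and 17 for B below A (0.0767%). Of the 51 called probes, 41 were among the 77 and 39 among the 56. All 51 had a positive difference within each orientation. Over all probes only 55.1% of differences had the same sign in both orientations, and across probes, which share arrays, the differences of the 2 orientations had a correlation of -0.03.

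**Figure D1:**
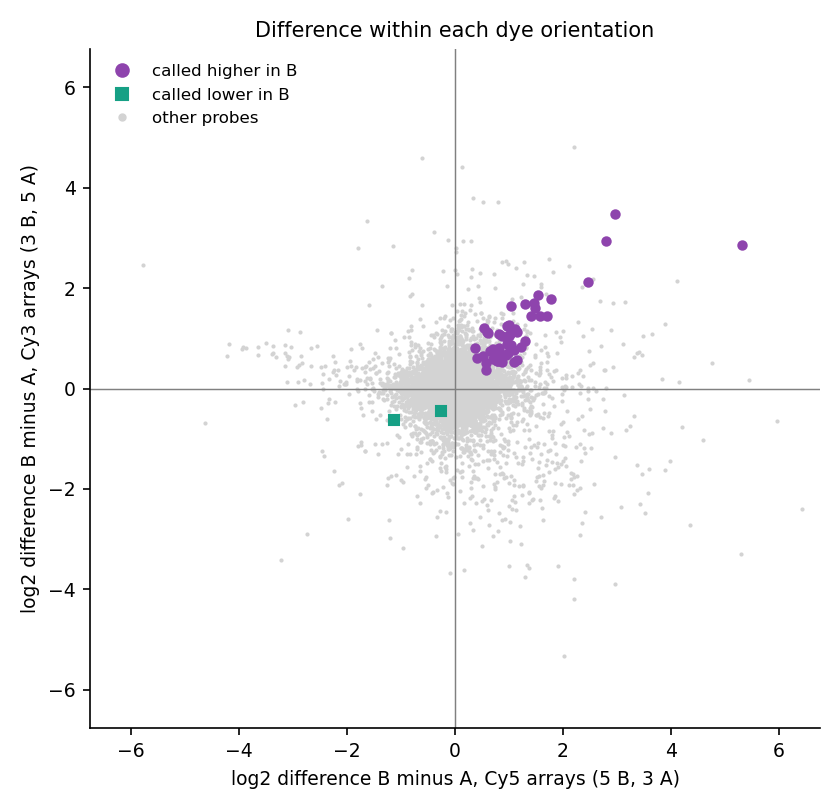
Log2 difference B minus A of each of 22176 probes on the Cy5 arrays (horizontal axis, 5 tumors of B and 3 of A) and on the Cy3 arrays (vertical axis, 3 of B and 5 of A). The 51 probes called higher in B (circles) lie at the upper right, and the 2 called lower (squares) at the lower left, within a cloud of other probes (grey points) centered near 0.

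The mean over the 51 probes summarises each tumor. It was 0.37, 0.48, 0.43, 0.52 and 0.48 in the Cy5 tumors 3, 4, 5, 7 and 8 of subgroup B, against -1.05, -0.57 and -0.47 in tumors 1, 2 and 6 of subgroup A. With Cy3 it was 0.93, 0.92 and 0.88 in tumors 10, 11 and 12 of B, against -0.06, -0.39, -0.27, -0.06 and -0.29 in tumors 9, 13, 14, 15 and 16 of A. The gap between the subgroups, which the choice of probes fixes, was thus of like size in both orientations, and tumor 1, the rib tumor, was the lowest of A. Without it 35 probes were called higher in B, of which 34 were among the 51, and without tumor 4 of B 85 were, the 51 included. In the 3 Cy3 tumors of B all 51 probes lay above the pool, and in the 5 Cy5 tumors 44 to 48 did. In subgroup A the number was 0 to 24 probes.

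The LS tumors lay nearer to subgroup A than to subgroup B. The 51 probes were picked as high in B, and 7 of them belong to clustered genes with a symbol. The clustered genes had been chosen as higher in short than in long survivors, so the low level of LS follows in part from these choices. Their mean over the 51 probes ran over -0.64 to -0.38 with Cy5, beside -1.05 to -0.47 in the Cy5 tumors of A, and over -0.29 to 0.27 with Cy3, beside -0.39 to -0.06 in A. The highest LS tumor, number 27, reached 0.27, still below the lowest Cy3 tumor of B at 0.88. Without adjustment for dye, subgroup B had a mean above the pool at 51 of the 51 probes, subgroup A at 1 and LS at 1. The medians of these unadjusted means were 0.57 in B, -0.29 in A and -0.25 in LS. At 20 of the 51 probes the unadjusted mean of subgroup A was above that of LS. These probes ran higher on Cy3 arrays, which were 5 of 8 in A and 8 of 16 in LS, so no side of A against LS is read from this count.

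**Figure D2:**
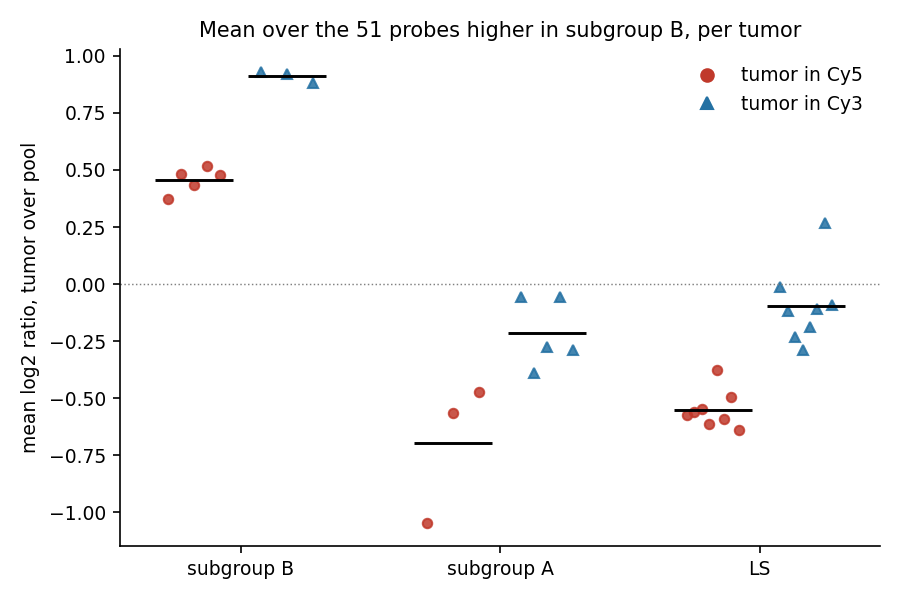
Mean log2 ratio of tumor over pool (vertical axis) over the 51 probes higher in subgroup B, for each of the 32 tumors by group, with the tumor in Cy5 (circles) or Cy3 (triangles) and the mean of each set as a line. Within each orientation every tumor of B (0.37 to 0.52 in Cy5, 0.88 to 0.93 in Cy3) lies above every tumor of A and of LS. The choice of probes fixes the gap between B and A, and LS tumors entered the study's choice of the clustered genes.

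How evenly the 51 probes moved from tumor to tumor differed among the groups. Centered within orientation, their mean pairwise correlation was -0.01 across the 8 tumors of B, 0.30 across the 8 of A and 0.09 across the 16 of LS, beside 0.01, 0.00 and 0.00 over pairs of all probes. The SD of the tumors' mean over the 51 probes was 0.04 in B, 0.20 in A and 0.13 in LS. Single probes did not share this narrow spread: their median SD across tumors was 0.27 in B, 0.28 in A and 0.28 in LS. These values are descriptive, since probes with little spread within a subgroup pass the fit more easily. In A, tumor 1 stood apart in the mean over the 51 probes, at -1.05 beside -0.57 and -0.47 in the other Cy5 tumors. Its part in the correlation and SD of A was not tested.

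SRRM1, an SR-related splicing coactivator, had the smallest p of all probes, with a log2 difference of 1.43 (SE 0.12). Its log2 ratio was 0.44, 0.95, 0.79, 0.58 and 0.64 in the Cy5 tumors of B, against -1.20, -0.34 and -0.63 in those of A, and with Cy3 1.36, 1.35 and 1.23 in B, against 0.12, -0.23, -0.15, -0.23 and -0.19 in A. The subgroups did not overlap in either orientation, and the LS tumors averaged -0.44 ± 0.50 (SD, n = 16). A further SRRM1 probe gave -0.08 (SE 0.09). SRRM1 was among the clustered genes, so its separation follows in part from the clustering.

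SON, a scaffold protein of nuclear speckles that splicing of many transcripts needs, had 5 probes, all with a positive difference, of which 2 were called. Its leading probe had log2 ratios of 0.63, 0.76, 0.50, 0.27 and 0.53 in the Cy5 tumors of B, against -0.81, -0.41 and -0.29 in those of A, and of 0.84, 0.80 and 0.53 in the Cy3 tumors of B, against -0.08, -0.10, -0.26, -0.14 and -0.10 in those of A. All tumors of B were above the pool and all tumors of A below it at this probe. The log2 differences of the 5 probes were 0.95, 1.12, 0.66, 0.52 and 0.11.

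DDX46, an RNA helicase of early spliceosome assembly, had a log2 difference of 0.67 (SE 0.10). It ran over 0.25 to 0.79 with a median of 0.61 in B, and over -0.39 to 0.09 with a median of -0.11 in A, without overlap. SRSF11, an SR protein (0.70, SE 0.13), SRPK2, a kinase of SR proteins (0.88, SE 0.17), U2SURP, which binds the U2 particle of the spliceosome (0.96, SE 0.17), and PNISR, an SR-rich nuclear protein (0.51, SE 0.10), were also called higher in B, and of these SRPK2 and U2SURP were not in the list of splicing factors. Dye-adjusted values of the subgroups overlapped at SRPK2, where 7 tumors of B lay above all of A, and at U2SURP, where 6 did. A second probe of U2SURP gave -0.30 (SE 0.19). SCAF11, a splicing-associated SR protein, and CLK1, a kinase of SR proteins, had log2 differences of 0.68 (SE 0.15) and 1.25 (SE 0.28) and were not called among the probes. PNISR had 3 further probes, not called, with 0.71 (SE 0.17), 0.09 (SE 0.09) and -0.04 (SE 0.16), of which the first was without overlap in either orientation.

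Of 37 splicing factors measured as 1 mean per gene, 22 were higher and 15 lower in B, with a median log2 difference of 0.06, and 5 were called higher (SRRM1, DDX46, SON, CLK1 and SCAF11) and 0 lower. On the same scale 27 of 5246 genes were called higher (0.515%) and 1 lower (0.0191%), and the median of all genes was -0.02. Of the list 59.5% were higher, beside 44.2% of all genes, and its median was 0.16 on the Cy5 arrays and -0.004 on the Cy3 arrays. A shift of the list was not tested. SRRM2, a near namesake of SRRM1 in speckles, had -0.40 (SE 0.15), and SF1, the branch point binding protein, had -0.43 (SE 0.23). Both were named after their values were seen. SRRM1 and SCAF11 of this list were among the genes on which the tumors had been clustered.

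The called genes also held regulators of chromatin. BAZ1B, a subunit of chromatin remodeling complexes with SMARCA5, had a log2 difference of 1.14 (SE 0.12) at its leading probe. Its log2 ratio was 0.65, 0.63, 0.28, 0.22 and 0.45 in the Cy5 tumors of B, against -1.16, -0.41 and -0.55 in those of A, and with Cy3 1.18, 1.31 and 0.75 in B, against -0.01, -0.08, -0.24, 0.13 and -0.02 in A. Its other 3 probes also had positive log2 differences, of 0.73, 0.20 and 0.24, and the first of these was called. RSF1, which forms a remodeler with SMARCA5 as well and was in none of the gene lists, had 0.68 (SE 0.13) at 1 probe and 0.11 (SE 0.08) at the other.

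ANKRD11 and ANKRD17 are proteins with ankyrin repeats, of which ANKRD11 binds nuclear receptor coactivators and histone deacetylases. ANKRD11 had log2 ratios of 1.25, 1.00, 0.92, 0.64 and 1.19 in the Cy5 tumors of B, against -1.41, -0.09 and 0.11 in those of A, and of 0.78, 1.53 and 1.03 with Cy3 in B, against -0.76, -0.42, -0.52, -0.46 and -0.74 in A. The difference was 1.58 (SE 0.19), and every tumor of B stood above the pool. For ANKRD17 the differences at its 3 probes were 1.71 (SE 0.24), 1.02 (SE 0.14) and 0.00 (SE 0.11). At the first probe LS averaged -0.97 ± 0.55, below A, which averaged -0.57 ± 0.62 after adjustment for dye (SD, n = 16 and 8). ANKRD11 and ANKRD17 were both among the genes that the study had chosen as higher in short than in long survivors and then clustered. Their separation of B from A follows in part from that choice.

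NCOR1, the nuclear receptor corepressor, had log2 ratios of 0.30, 0.89, 0.61, 0.69 and 0.98 in the Cy5 tumors of B, against -0.85, -0.07 and -0.02 in those of A, and of 0.65, 1.20 and 0.81 with Cy3 in B, against -0.57, -0.29, -0.01, -0.50 and -0.53 in A. The subgroups did not overlap, and the difference was 1.14 (SE 0.15). NCOR1 was among the clustered genes, and the study reported its overexpression only in tumors of subgroup B. This separation is therefore a description of the clustering itself. Other probes of NCOR1 gave 0.20 (SE 0.13) and 0.14 (SE 0.17). NR3C1, the glucocorticoid receptor, had a log2 difference of 0.85 (SE 0.15), with 0.26, 0.88, 0.51, 0.80 and 0.21 in the Cy5 tumors of B, against -0.55, 0.32 and -0.01 in A, and 0.85, 0.39 and 0.81 with Cy3 in B, against -0.50, -0.41, -0.21, -0.36 and -0.58 in A. Tumor 2 of A lay inside the range of B. A second NR3C1 probe gave -0.05 (SE 0.11).

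RBBP6, a ubiquitin ligase that binds RB1 and p53, ran over 0.48 to 1.56 with a median of 0.63 in B, and over -1.16 to -0.01 with a median of -0.26 in A, with a log2 difference of 1.15 (SE 0.16). Tumor 10 of B was its highest value, and a second RBBP6 probe gave -0.04 (SE 0.12). SMC5, a core subunit of the SMC5/6 complex that acts in DNA repair, ran over 0.22 to 0.81 in B with a median of 0.52, and over -0.25 to 0.21 in A with a median of -0.13 (log2 difference 0.65, SE 0.09). Its partner SMC6, one of the clustered genes, had a log2 difference of 0.58 (SE 0.15) and was not called. Of 40 chromatin modifiers and remodelers measured as 1 mean per gene, 27 were higher and 13 lower with a median of 0.13, and 4 were called higher (ANKRD11, BAZ1B, ANKRD17 and RBBP6). Over all genes 27 of 5246 were called higher (0.515%), and 44.2% had a positive difference. ANKRD11 and ANKRD17 were clustered genes, the lists were chosen with earlier results known, and a shift of a list was not tested. Of 14 ankyrin repeat and nuclear receptor coregulators, 8 were higher and 6 lower with a median of 0.03, and 2 were called. Of 15 genes of DNA repair, 9 were higher, with a median of 0.04, and 0 were called, the second SMC5 probe giving 0.19 (SE 0.18).

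**Figure D3:**
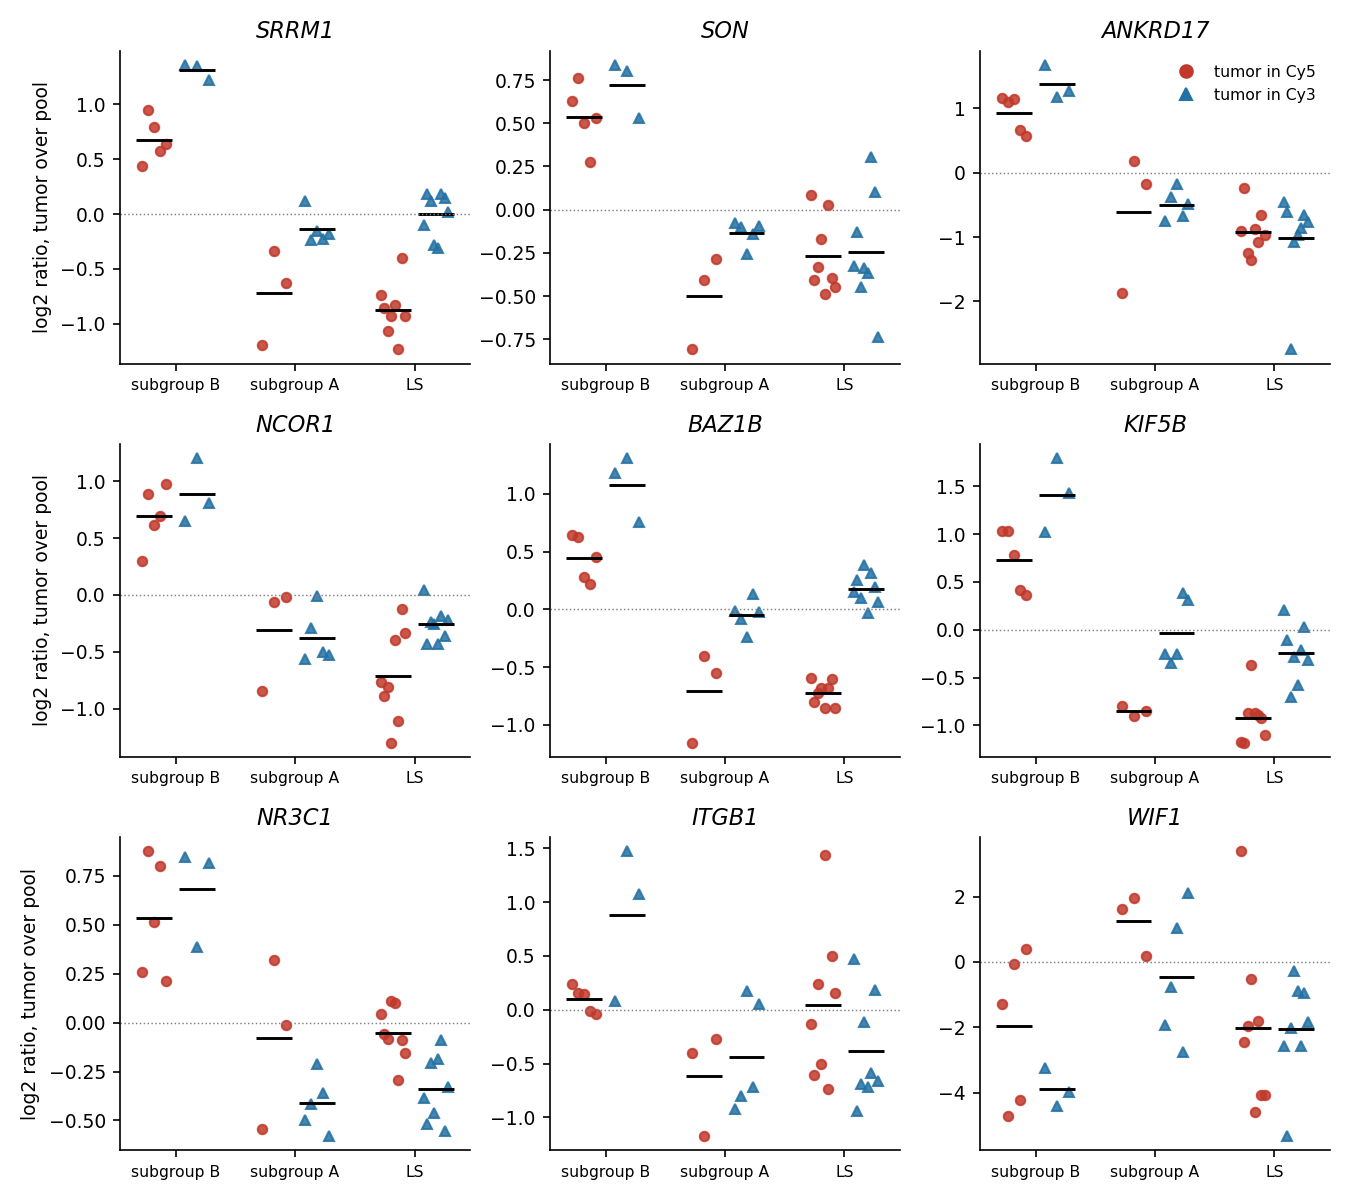
Log2 ratio of tumor over pool (vertical axes) of 9 genes at the probe with the smallest p, for each tumor of subgroup B, subgroup A and LS, with the tumor in Cy5 (circles) or Cy3 (triangles) and means as lines. SRRM1, SON, ANKRD17, NCOR1, BAZ1B and KIF5B show no overlap of B with A within an orientation, NR3C1 and ITGB1 show some, and WIF1 spans several log2 units in every group.

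Genes of transport and the cytoskeleton were called as well. KIF5B, the heavy chain of the motor kinesin-1, had a log2 difference of 1.51 (SE 0.15). Its log2 ratio was 1.03, 1.04, 0.78, 0.42 and 0.36 in the Cy5 tumors of B, against -0.80, -0.90 and -0.85 in those of A, and with Cy3 1.02, 1.79 and 1.43 in B, against -0.25, -0.35, -0.25, 0.39 and 0.31 in A. DST, a giant linker of the cytoskeleton, had 1 called probe (1.10, SE 0.20) among 7, the other 6 giving log2 differences of -0.20 to 0.26. Of 20 kinesins and genes of microtubule transport, 9 were higher and 11 lower with a median of -0.02, and KIF5B was the only one called as a gene mean. KIF5B was among the clustered genes, and over all genes 27 of 5246 were called higher (0.515%).

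ITSN2, a scaffold of endocytosis, had a log2 difference of 1.49 (SE 0.26) and a wide spread in B, -0.12 to 1.70 with a median of 1.05, against -1.33 to 0.26 with a median of -0.54 in A. SLMAP, a membrane protein of the STRIPAK phosphatase complex, had 0.95 (SE 0.12), REEP3, which shapes the endoplasmic reticulum, 0.79 (SE 0.13), and AKAP9, a scaffold of the Golgi and the centrosome, 0.81 (SE 0.14). CCSER2, which binds microtubule bundles, had 3 probes, all called, with log2 differences of 0.70 (SE 0.12), 0.75 (SE 0.14) and 0.92 (SE 0.18), and none overlapped in either orientation. ACTN2, the alpha-actinin of the muscle Z-disc, had 1 called probe with a log2 difference of 0.54 (SE 0.08) and 4 others with -0.11 to 0.36.

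The skeletal muscle markers, set beside ACTN2, were not called: of 22 measured, 14 were higher and 8 lower in B with a median log2 difference of 0.08. Their mean ran over -0.49 to 0.84 with a median of -0.34 in B, and over -0.47 to -0.24 with a median of -0.27 in A. The part of muscle in the value of ACTN2 was not tested.

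The remaining called genes were WNK1, a kinase that controls ion transport (log2 difference 1.33, SE 0.23), BDP1, a subunit of the RNA polymerase III factor TFIIIB (0.98, SE 0.19), ESF1, which in yeast acts in ribosomal RNA processing (0.86, SE 0.15), PRRC2C (0.85, SE 0.15), SDAD1, whose yeast counterpart acts in making the large ribosomal subunit (0.81, SE 0.15), USP24, a deubiquitinating enzyme (0.81, SE 0.16), and SNAPC1, a subunit of the complex that starts transcription of small nuclear RNA genes (0.74, SE 0.14). For WNK1 the B tumors ran over 0.25 to 1.55 with a median of 0.82, and the A tumors over -1.10 to 0.36 with a median of -0.29, and 7 of B lay above all of A after adjustment for dye. A second WNK1 probe gave -0.16 (SE 0.14). Just outside the threshold stood a probe of CCAR1, a regulator of the cell cycle and apoptosis. Its 2 probes had log2 differences of 0.75 (SE 0.16) and 1.06 (SE 0.26), both without overlap in either orientation. As a gene mean CCAR1 was called higher, with 0.91 (SE 0.20). WNK1 and CCAR1 were both among the clustered genes. Just inside the threshold among probes stood an unnamed probe with 0.58 (SE 0.12).

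**Figure D4:**
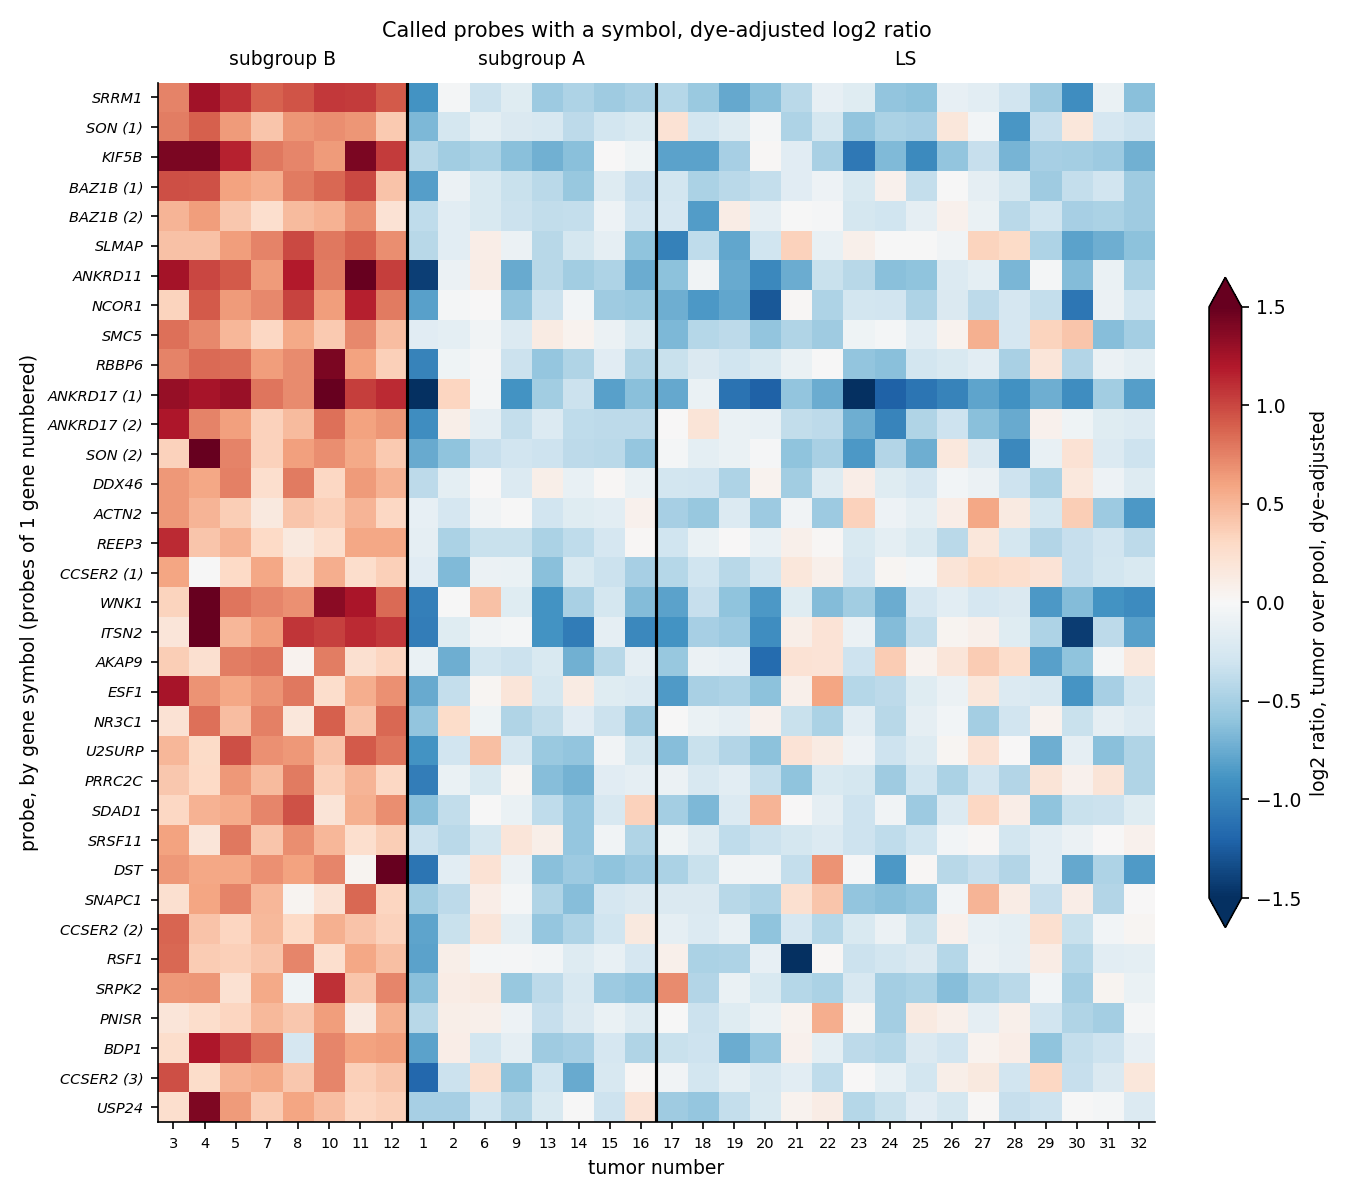
Dye-adjusted log2 ratio of tumor over pool (color, red above and blue below the pool) of the 35 called probes with a gene symbol (rows, by p, smallest at the top) in the tumors of subgroup B, subgroup A and LS (columns, by tumor number). B is red at nearly all probes, while A and LS are mostly blue, with tumor 1 the darkest of A.

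Not all probes of the called genes followed. Of the 30 genes, 22 had more than 1 probe, and these genes held 41 further probes that were not called. Of these, 29 were higher and 12 lower in B, with log2 differences of -0.30 to 0.71 and a median of 0.11. For SLMAP they were 0.29 and 0.01, for SDAD1 0.17 and 0.02, and for PRRC2C 0.01. At 14 of the 22 genes all probes were higher, and at 4 (ANKRD17, BAZ1B, CCSER2 and SON) more than 1 probe was called. The array holds different cDNA clones under 1 symbol, and which transcripts each detects was not analysed here.

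The genes on which the tumors had been clustered divided in this comparison, which is a description of the choice itself. Of 24 such genes with a symbol, 6 were called higher in B at a probe (SRRM1, KIF5B, ANKRD11, NCOR1, ANKRD17 and WNK1). As gene means 6 were called as well, with CCAR1 and SCAF11 in place of NCOR1 and WNK1. Over their 47 probes, 30 differences were positive and 17 negative, with a median of 0.10. HSP90AA1, the inducible form of cytosolic HSP90, had 1.24 (SE 0.38) at its leading probe, with -0.17 to 1.73 and a median of 0.67 in B, against -1.39 to 1.52 and a median of -0.67 in A, where tumor 13 stood at 1.52. Its other probes gave -0.10 and 0.02, and the leading probe had a correlation of 0.987 over 32 tumors with a probe of PON1, so that the gene label of this value is in doubt. RSL1D1, a nucleolar protein, had 0.76 (SE 0.20).

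Others of these genes did not separate the subgroups, or lay lower in B. WSB2, a substrate adaptor of ubiquitin ligases, had -1.45 (SE 0.65), with -2.31 to 2.86 and a median of 0.64 in B, and -0.07 to 3.85 with a median of 1.09 in A. Its difference was -2.56 on the Cy3 arrays and -0.33 on the Cy5 arrays, and other WSB2 probes gave 0.10 and 0.08. CFL2, the cofilin of muscle, had 0.03 (SE 0.57), with -1.08 to 4.10 in B and -1.10 to 1.15 in A, where tumor 7 of B reached 4.10. MGST1, a membrane-bound glutathione transferase, had -0.39 (SE 0.43), and MRPS31, a protein of the mitochondrial ribosome, had -0.30 (SE 0.20) and -0.21 (SE 0.16). At these 4 genes LS averaged -1.05, -0.96, -0.62 and -0.33 at the leading probe, below both subgroups. The study had chosen these genes on the same arrays as higher in short than in long survivors, so the low level of LS follows from that choice. After adjustment for dye the subgroups averaged 0.36 in B and 1.81 in A at WSB2, and 0.49 in B and 0.46 in A at CFL2.

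Few probes were called lower in subgroup B. None of them had a symbol, and the only gene called lower as a gene mean was CACNA2D4, an auxiliary subunit of calcium channels, with 1 probe and a log2 difference of -0.46 (SE 0.11). Its log2 ratio was -0.29, -0.51, 0.13, -0.01 and -0.03 in the Cy5 tumors of B, against 0.21, 0.16 and 0.63 in those of A, and with Cy3 -0.22, -0.44 and -0.43 in B, against 0.03, -0.05, -0.01, 0.30 and 0.14 in A. No tumor of B reached a tumor of A of its orientation. The same held for NUDT2, a hydrolase of dinucleotide polyphosphates (-0.65, SE 0.16), RHOC, a small GTPase (-0.44, SE 0.12), OTUB2, a deubiquitinating enzyme (-0.33, SE 0.09), HSF1, the heat shock transcription factor (-0.30, SE 0.09), SCIMP (-0.20, SE 0.07) and AKT2, a kinase of insulin signaling (-0.19, SE 0.06). HSF1 had 3 further probes, which gave log2 differences of 1.04, -0.12 and -0.02.

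Of the probes with a symbol, WIF1 had the largest difference in the negative direction. It encodes a secreted inhibitor of Wnt ligands and was not called. Its log2 ratio was -1.28, -4.70, -0.06, -4.21 and 0.41 in the Cy5 tumors of B, against 1.63, 1.95 and 0.18 in those of A, and with Cy3 -3.25, -4.40 and -3.98 in B, against -1.92, -0.77, 1.05, -2.75 and 2.11 in A. The Cy3 tumors did not overlap and the Cy5 tumors did, at tumor 8 of B. The log2 difference was -3.32 (SE 0.85), and LS, at -2.03 ± 2.06 (SD, n = 16), lay nearer to B. Of 13 genes of the Wnt pathway, 6 were higher and 7 lower with a median of -0.01, and 0 were called. The other lower genes with the smallest p, none of them called, were CIB2, C24H20orf27, STMP1, D2HGDH, SMDT1, TMEM132D, CIAPIN1, RCE1, MCAT and AAAS, with log2 differences of -0.53 to -0.29.

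Cell type markers gave no called gene. Of 7 bone matrix and osteoblast markers, 6 were lower and 1 higher in B with a median of -0.29, and of 5 osteoclast markers all were lower, with a median of -0.55 (-1.52 on the Cy5 arrays and 0.07 on the Cy3 arrays). The mean of the osteoclast markers ran over -1.38 to 0.38 with a median of -0.55 in B, and over -1.35 to 1.08 with a median of 0.49 in A. Of 9 fibroblast and stromal matrix markers, 6 were higher with a median of 0.31, and their mean ran over -0.67 to 0.64 in B and -1.36 to 0.51 in A. The median was 0.06 on the Cy5 arrays and 0.56 on the Cy3 arrays, and 3 of these markers were lower in B, down to -0.55. DCN, a proteoglycan of this list, had a log2 difference of 1.49 (SE 0.80). Of 2 cartilage markers, 1 was higher, and COL2A1, the collagen of cartilage, had at 1 of its 2 probes 1.05 on the Cy5 arrays and -2.21 on the Cy3 arrays. The medians of the endothelial markers (5 genes), leukocyte markers (10), smooth muscle and pericyte markers (5) and plasma protein markers (10) were 0.18, 0.01, -0.01 and 0.07, and CA1, the 1 erythroid marker measured, had -0.04, while none of the adipocyte markers had a probe. These are ratios to a pool of tumors, so they do not show how much of a cell type a tumor held, and the part of cell types in the called differences was not tested.

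No gene of energy metabolism was called. Of 51 genes of the respiratory chain and ATP synthase, 41 were lower and 10 higher with a median of -0.13, and of 26 of glycolysis and the citrate cycle, 18 were lower with a median of -0.13, beside the -0.02 of all genes. The median of the respiratory chain was -0.03 on the Cy5 arrays and -0.19 on the Cy3 arrays, and that of glycolysis and the citrate cycle was -0.08 and -0.10. COX5B, a subunit of cytochrome oxidase, had -0.37 (SE 0.13), and the leading probe of PFKP, a phosphofructokinase, had -0.38 (SE 0.11). Cytosolic ribosomal proteins had a median of -0.09 over 54 genes, but 0.17 on the Cy5 arrays and -0.27 on the Cy3 arrays, so that their direction differed between the orientations. Of 10 genes of the cell cycle and DNA replication, 9 were lower with a median of -0.08, which was 0.00 on the Cy5 arrays and -0.19 on the Cy3 arrays.

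The remaining lists held 1 called gene, beside 27 of 5246 called higher over all genes (0.515%). Of 22 genes of integrins, adhesion and actin, 8 were higher and 14 lower with a median of -0.08, and ITGB1, the beta 1 integrin chain, was called as a gene mean, with a log2 difference of 1.02 (SE 0.23) at its 1 probe, which did not pass among all probes. It ran over -0.04 to 1.47 in B with a median of 0.15, and over -1.17 to 0.18 in A with a median of -0.56. The medians were -0.09 for heat shock proteins and chaperones (28 genes), -0.06 for proteasome and ubiquitin genes (37), -0.04 for the secretory pathway (32), -0.01 for translation factors (27), mitochondrial ribosomal proteins (46), hypoxia response (16), antigen presentation (9) and detoxification (24), and 0.09 for growth factors and receptors (15). The sign differed between orientations for heat shock proteins (0.13 on the Cy5 arrays and -0.16 on the Cy3 arrays), translation factors (0.15 and -0.19) and the secretory pathway (0.05 and -0.21). The interferon response had -0.29 over 3 genes and cytokines and chemokines 0.29 over 2. IQGAP1, an actin-binding scaffold, had a log2 difference of 0.99 (SE 0.26), not called and without overlap in either orientation.

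As gene means, genes with 1 probe each and in none of the lists were called higher that had missed the threshold among all probes. These were RB1CC1, which acts in the start of autophagy (log2 difference 0.87, SE 0.19), SEPTIN7, a filament-forming GTPase (0.76, SE 0.16), ZNF148, a zinc finger transcription factor (0.64, SE 0.14), RFC1, the large subunit of the clamp loader of DNA replication (0.52, SE 0.11), and CLOCK, a transcription factor of the circadian clock (0.48, SE 0.10). The subgroups did not overlap in either orientation at SEPTIN7 and CLOCK, and overlapped in at least 1 orientation at RB1CC1, ZNF148 and RFC1.

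**Figure D5:**
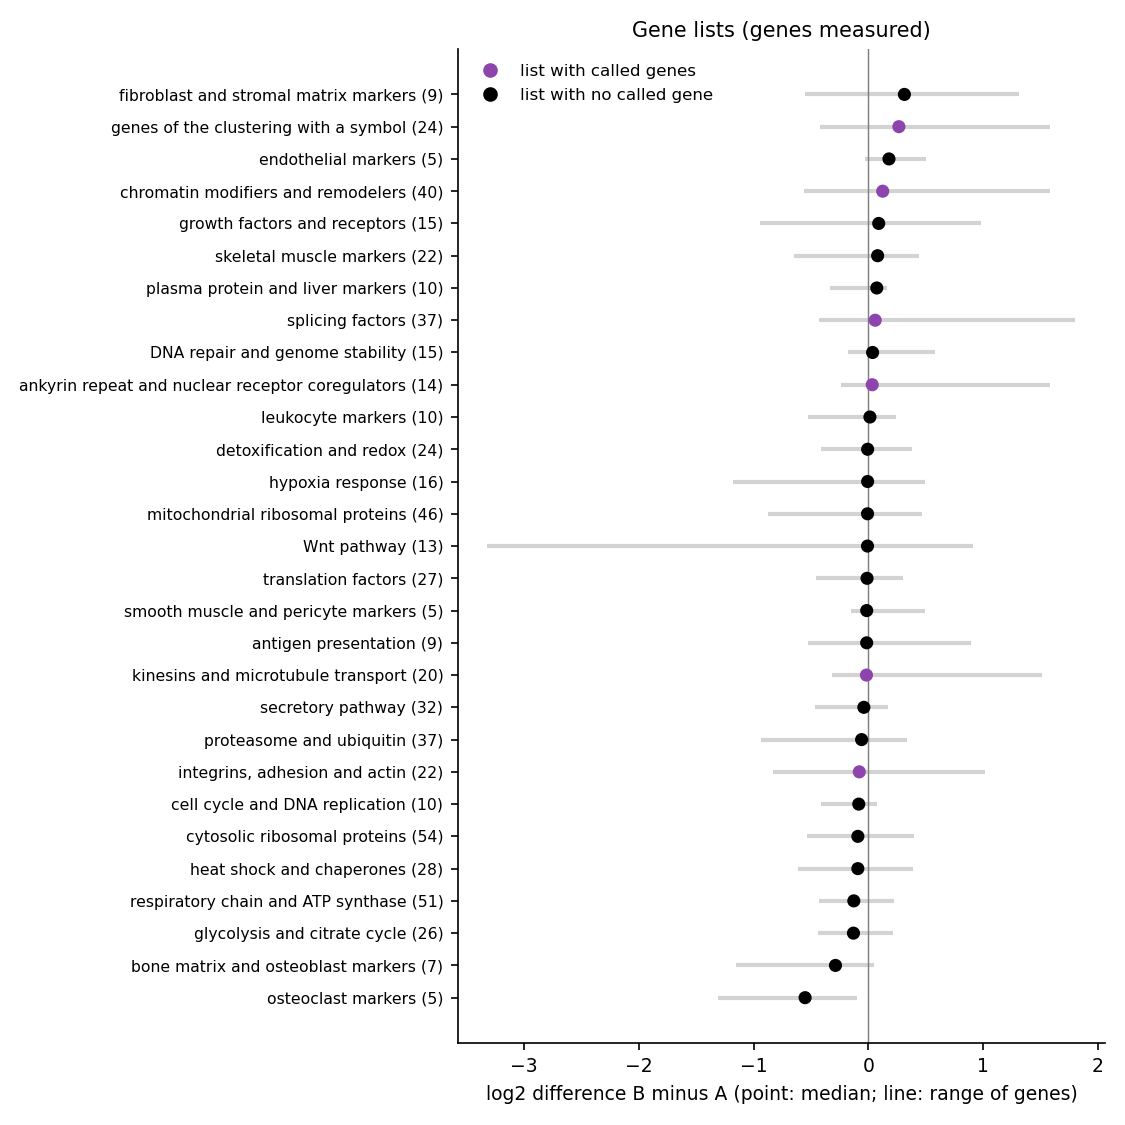
Median log2 difference B minus A (points) and lowest to highest gene (lines) of each gene list with at least 5 measured genes, with the number of genes in brackets. Purple points mark lists that hold a called gene. Most medians lie close to 0, with osteoclast markers at -0.55 and bone matrix markers at -0.29 at the lower end.

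Whether the difference between the subgroups depended on the dye was tested as an interaction, a contrast other than the one that chose the subgroups. Limma called 0 of 22176 probes (0%), with a smallest adjusted p of 0.342, while 917 probes (4.14%) had an unadjusted p under 0.05. Of the 51 called probes, 2 were among these. The named genes with the smallest p of the interaction were TRIP12, ADGRF5, NSUN5, GALNT15, TIRAP and EIF4ENIF1, whose log2 differences on the Cy5 and the Cy3 arrays had opposite signs, as in TRIP12, a ubiquitin ligase, with 0.28 and -0.84. With 3 to 5 tumors of a subgroup in an orientation, a p above the threshold does not show that the differences were equal.

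The subgroups were also compared in clinical features, which the clustering did not use. The study had itself compared sex, grade and chemotherapy between its subgroups, with the same counts, and reported no difference. For these features the comparison repeats that of the study and adds no independent result. Subgroup B held 4 females, 3 tumors with a fibroblastic and 2 with a chondroblastic component, 2 of medium grade and 5 dogs given chemotherapy after surgery, against 3, 4, 2, 1 and 4 in subgroup A. Fisher's exact test, two-sided, gave p = 1 for each of these 5, and 0.619 for the dye orientation. For age the exact permutation test, two-sided, gave p = 0.219, and after adjustment over the 8 comparisons every p was 1. All 8 tumors of B were limb tumors, against 6 of A, where tumor 1 came from a rib and tumor 16 from the mandible (Fisher's exact p = 0.467). With 8 dogs a side such tests find only large imbalances, and survival, by which the membership was worked out, was not among them.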

How the data were processed

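RNA of each tumor was amplified to cRNA and hybridized against the pool. The deposited values are log2 ratios of tumor over pool on 22176 probes. The authors flagged defective spots, used a print-tip Lowess normalization and a log transformation, and switched arrays with swapped dyes. Precision is set by how few arrays there were. In the platform annotation 7694 probes have 1 symbol and 14482 have none. Differences were fitted with limma 3.58.1 in R 4.3.3 on 16 SS arrays, with subgroup and dye as terms, and p-values were adjusted over all probes by the Benjamini-Hochberg method, with a threshold of 0.10. Gene means average the probes of a symbol. The fit was also run on simulated data with independent noise per probe and fixed subgroups. That run does not bear on subgroups chosen from the same arrays. Clinical tests used SciPy 1.17.1 in Python 3.11.15 on the study's clinical table. Subgroup membership and the 34 gene lists were chosen with earlier results of these data known. Named are the 14 higher and 14 lower genes with the smallest p, the clustered genes, up to 4 genes per list, up to 8 per direction without overlap in both orientations, and 6 by interaction. Further called genes and CLK1, SRRM2 and SF1 were chosen after their values were seen. Alternatives covered dye, samples, scaling, covariates, threshold and tumors left out.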

Additional observations from a re-analysis of the deposited data

Results flagged for a closer look

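Among 94 sets of 8 tumors (47 probes of named genes in each subgroup, dye-adjusted log2 ratios), 8 held a tumor far from the others by Dixon's criterion. Chance flags about 1 in 20 independent, unselected groups, while these sets share tumors and were chosen from these data, so the count is not set against that rate. In subgroup B, tumor 10 stood at 1.41 for RBBP6 (next highest 0.85), tumor 3 at 1.12 for REEP3 (next 0.58) and tumor 3 at -1.14 for NUDT2 (next lowest -0.45). In subgroup A, tumor 1 stood at -0.67 for SON (next lowest -0.40) and at 0.76 for TMEM132D (next highest 0.28). Tumor 13 of subgroup A stood at 1.39 for HSP90AA1 (next highest -0.35) and at 1.36 for PON1 (next -0.12), and tumor 16 of A at 4.74 for WSB2 (next 2.03). At RBBP6, REEP3, NUDT2, SON, TMEM132D and WSB2 this tumor lay on the side away from the other subgroup, and at HSP90AA1 and PON1 tumor 13 lay on the side of subgroup B. All of these except WSB2, HSP90AA1 and PON1 were named for a small p of B against A. A tumor near the other subgroup makes such a p less likely, so this choice favors the far side.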

How the results depend on the processing

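The counts of 51 probes higher and 2 lower in subgroup B depended on the model. They were 23 and 0 without the dye as covariate, 137 and 17 in 1 model of B, A and LS over 32 arrays, 110 and 9 with array weights, 0 and 0 on the Cy5 arrays alone, and 26 and 10 on the Cy3 arrays alone. Of the 51, 49 were among the 137, 50 among the 110 and 15 among the 26. In limb tumors alone, without tumors 1 and 16, the counts were 33 and 1, with 29 of the 51, and with 1 mean per gene symbol 27 and 1. Lower probes numbered 0 with arrays scaled to the same spread and at a threshold of 0.05, and 1 with quantile normalization, with sex as covariate and among the more variable probes. Leaving out 1 tumor at a time gave 35 to 85 higher, the most without tumor 4 of B, with 33 to 51 of the 51 among them, and 0 to 6 lower, the most without tumor 2 of A. Not centered for dye, 27 probes had all of B above A and 1 all of B below A. The interaction with dye had 2 calls after quantile normalization. With the sign of the Cy3 arrays turned, 0 probes were higher and 0 lower, and the log2 difference turned to -0.0242 for SRRM1, -0.14 for SLMAP, -0.12 for ANKRD11, -0.13 for NCOR1, -0.0321 for RBBP6, -0.16 for ANKRD17, -0.0487 for CCSER2 and -0.30 for WNK1. Under the other settings no called gene among the 47 named differences changed sign. Of 33 list medians, the sign turned for 9 on the Cy5 arrays, 11 on the Cy3 arrays, 12 in limb tumors, 6 without the dye, 4 with quantile normalization and 1 with the LS dye profile removed. The causes were not tested. No paired analysis was possible because the subgroups share no tumor numbers.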

Other observations

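The leading probes of HSP90AA1 and PON1, a paraoxonase of blood plasma, both listed for the clustering, followed each other closely, with a Pearson correlation of 0.987 across the 32 tumors. It was 0.987 within SS and 0.980 within LS, and other probes of HSP90AA1 differed between the subgroups by -0.10 and 0.02 and those of PON1 by -0.24 to 0.06. Which symbol belongs to either leading probe was not checked here. The pair was chosen after its values were seen. In the probes of SMC5 and SMC6 the correlation was 0.649 across the 32 tumors, 0.680 within SS and 0.372 within LS.

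The largest differences in either direction among the called probes were those of probes without a symbol. One had a difference of 4.08 (SE 0.78), with dye-adjusted log2 ratios of -0.04 to 5.07 in subgroup B and -4.29 to -0.03 in subgroup A, while LS ran over -6.20 to 7.79, past both subgroups on either side. Others had means of 1.06 in B, -2.10 in A and -1.41 in LS (difference 3.22, SE 0.42), and 1.07 in B, -1.69 in A and -1.03 in LS (difference 2.87, SE 0.49).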
